A study of Mus musculus with 8 samples.

Results

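Chemokines and their receptors were examined in cells sorted from tumor-bearing mouse lungs by protease activity. The members were the rows of the count table whose gene symbol begins with Ccl, Cxcl, Ccr, Cxcr or Ackr followed by a digit, together with Cx3cl1, Cx3cr1, Xcl1 and Xcr1. This gave 64 of 27179 rows, of which 41 encode ligands and 23 encode receptors. The mice were C57BL/6 animals (female C57BL/6J mice in the study's methods) of the Eml4-Alk model of lung adenocarcinoma, in which an adenovirus given into the airways carries Cas9 and guide RNAs that rearrange Eml4 and Alk. They were 18 to 22 weeks old and 11 to 12 weeks past tumor induction. All had received QZ1-(PEG2K) by vein (4.5 nmol), a quenched Cy5 probe that is turned on by proteolytic cleavage and then tags nearby cells, and lungs were collected 2 h later. Live cells that did not stain for CD45 or CD11b were divided by their QZ1 signal into a QZ1-hi population (labelled QZ+) and a QZ1-lo population (labelled QZ-), each of 100000 cells or more and each represented by 4 libraries. Both populations share the model, the probe and the CD45 and CD11b gate, and neither comes from healthy lung. Replicate numbers below follow the order of deposition and pair no libraries across populations. Since no label says that the libraries of a group came from separate mice, p values measure the spread between these libraries.

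Chemokines are small secreted proteins that guide cells along concentration gradients through G protein-coupled receptors. They are classed by the spacing of their first cysteines into CC, CXC, CX3C and XC families. Most CXC ligands that carry the residues Glu-Leu-Arg (ELR) before the CXC motif attract neutrophils through CXCR2. Most of those without it act on lymphocytes or other cells. Atypical receptors (the Ackr genes) bind chemokines without G protein signalling and remove or redistribute them. In the lung, airway and alveolar epithelium, stromal cells, lymphatic vessels and macrophages each produce their own set of ligands.

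Sequence bears on the results in 2 ways. Ccl21 has several near-identical copies in the mouse genome, so reads of one copy can be assigned to another. The coding sequence of Ccl21a differed from those of Ccl21b and Ccl21d at 2 of 399 bases (99.5% identity), which changes 1 of 133 residues, and the latter pair were identical. The stretch from coding base 164 to 224 (GENCODE M21, GRCm38), with the differing base 194 in capitals, shows how little separates them:
Ccl21a: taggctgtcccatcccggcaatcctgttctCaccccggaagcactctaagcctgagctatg
Ccl21b: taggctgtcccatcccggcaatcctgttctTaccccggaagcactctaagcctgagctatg
Ccl21d: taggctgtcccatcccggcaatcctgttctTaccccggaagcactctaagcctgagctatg
The ELR class can be read directly from the coding sequences of the CXC ligands. In each of the following stretches of 30 coding bases, the capitals mark the codons of the 3 residues that precede the CXC motif, and the last 9 bases encode that motif. The ELR ligands are represented by the one that was higher in QZ1-hi, the one that was lower and their neighbor Cxcl1, and the others by the called ligands without the motif:
Cxcl15: tgtgacactcaaGAGCTACGAtgtctgtgt
Cxcl3: gttgtggccagtGAGCTGCGCtgtcagtgc
Cxcl1: cctatcgccaatGAGCTGCGCtgtcagtgc
Cxcl12: ccagtcagcctgAGCTACCGAtgcccctgc
Cxcl13: gcccattacacaAACTTAAAAtgtaggtgt
Cxcl14: tcgcgcgtggacGGGTCCAAGtgtaagtgt
Cxcl16: cagggcagtgtcGCTGGAAGTtgttcttgt
Cxcl17: ctcttggaaggtGGCCAAGAAtgtgaatgc
Cxcl1, Cxcl3 and Cxcl15 encode Glu-Leu-Arg at these positions, as do Cxcl2 and Cxcl5. None of the other 5 ligands shown does.

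Total counts ranged from 18380918 to 26847938 per library, so that 3 counts, taken as the floor of detection, corresponded to 0.0894 to 0.179 CPM, a gene's count relative to the TMM-scaled total of its library. This floor covers counting error only. Mitochondrial and ribosomal RNA genes took 43.7, 62.8, 52.04 and 65.6% of the counts in replicates 1 to 4 of QZ1-hi and 33.99, 53.2, 37.03 and 43.3% in QZ1-lo, so that the ranges overlapped and both ends lay higher in QZ1-hi. With these genes removed before scaling, 11 members were called higher and 5 lower, as with all genes. The 64 members took 0.190 to 0.353% of the counts. Libraries of the same population correlated more closely (r from 0.949 to 0.974 across genes) than libraries of different populations (0.860 to 0.920). Although the gate removed CD45+ cells, the summed level of 6 pan-leukocyte genes was 678 to 1340 CPM in QZ1-hi and 492 to 977 CPM in QZ1-lo, and none of the 6 was called. Of the members, 44 passed the filter on low counts and were tested within a fit over 15583 genes.

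Of the 44 tested members, 11 were higher and 5 were lower in QZ1-hi (edgeR adjusted p under 0.05), against 9.88% of all tested genes called higher and 8.21% called lower. The 11 include 3 near-identical Ccl21 copies, whose reads cannot be divided with certainty. With near-identical copies of Ccl21, Ccl27 and Ccl19 summed, 42 members were tested, of which 9 were higher and 5 lower. In that fit 1538 and 1280 of 15581 genes were called. The values of the 4 QZ1-hi libraries all lay above those of the 4 QZ1-lo libraries for 11 tested members and all below for 3, against 11.9% and 10.7% of all tested genes. The median log2 fold change (QZ1-hi relative to QZ1-lo) was 0.43 over the tested members and 0.02 over all tested genes. The members that passed the filter do not stand for all members, because 9 of them reached the filter level of 0.43 CPM in every QZ1-hi library but not in every QZ1-lo library. Among these were Ccl11, Ccl21b, Ccl21d, Ackr3 and Ackr4, which were all called higher. With a requirement of 10 counts in every library, 30 members were tested, of which 6 were higher and 5 lower, while 1314 and 1190 of 13185 genes were called. With counts scaled by library size only, 10 members were higher and 11 lower, while 883 genes were higher and 2509 lower.

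**Figure D1:**
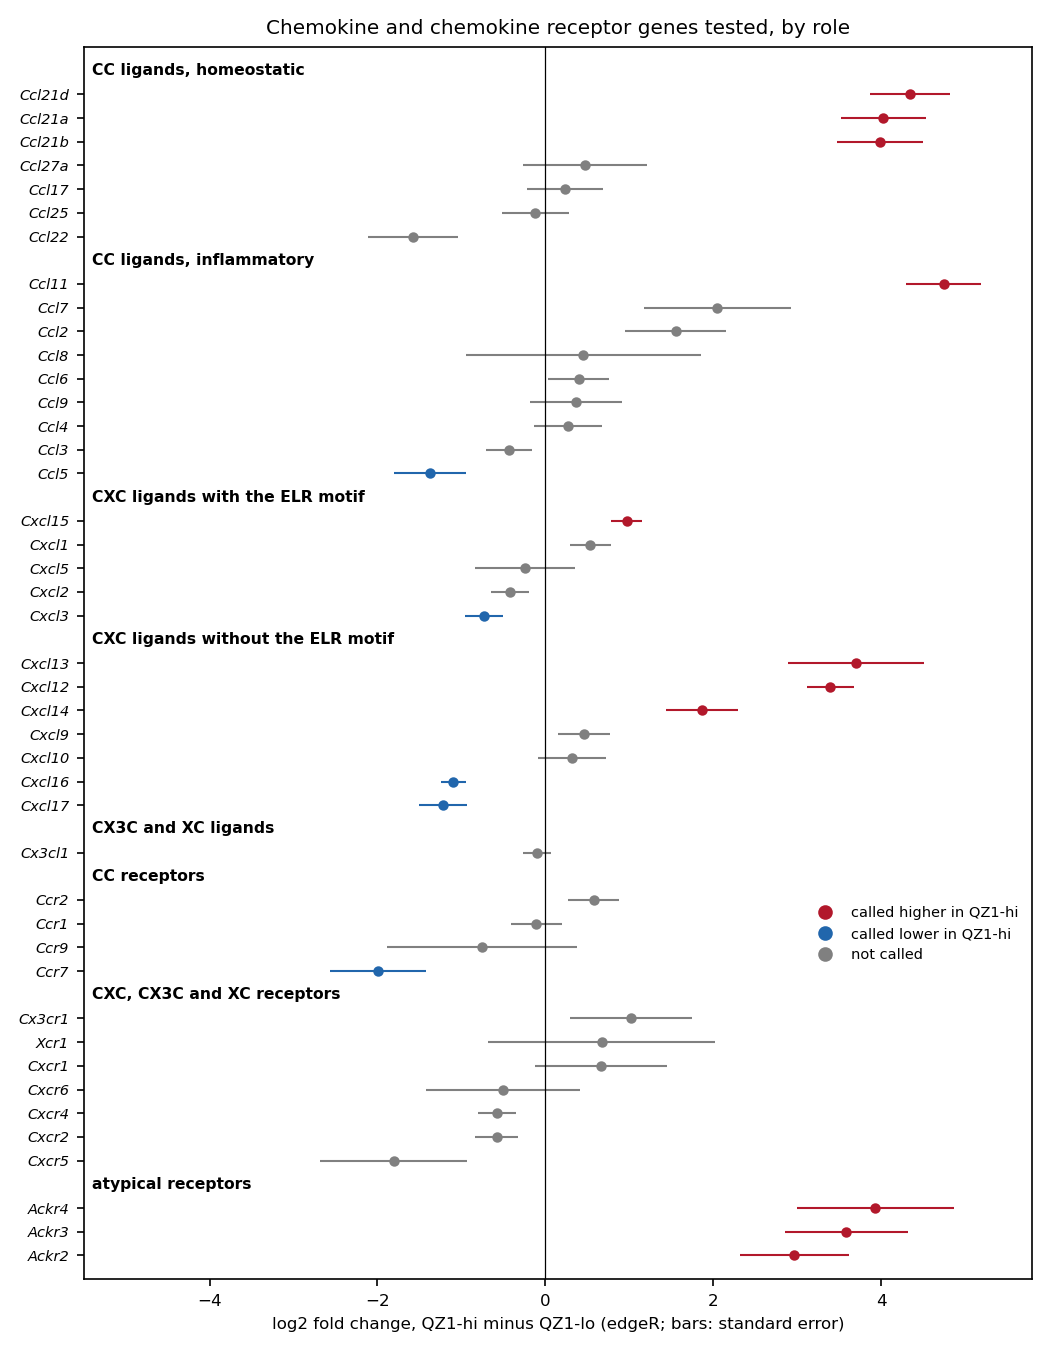
The log2 fold change (QZ1-hi minus QZ1-lo) of each of 43 tested members with its standard error, grouped by role and colored by call. The 3 tested atypical receptors, the 3 Ccl21 copies and Ccl11 lie furthest to the right with Cxcl12 and Cxcl13, and the 11 signalling receptors plotted lie between -1.99 and 1.02.

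**Figure D2:**
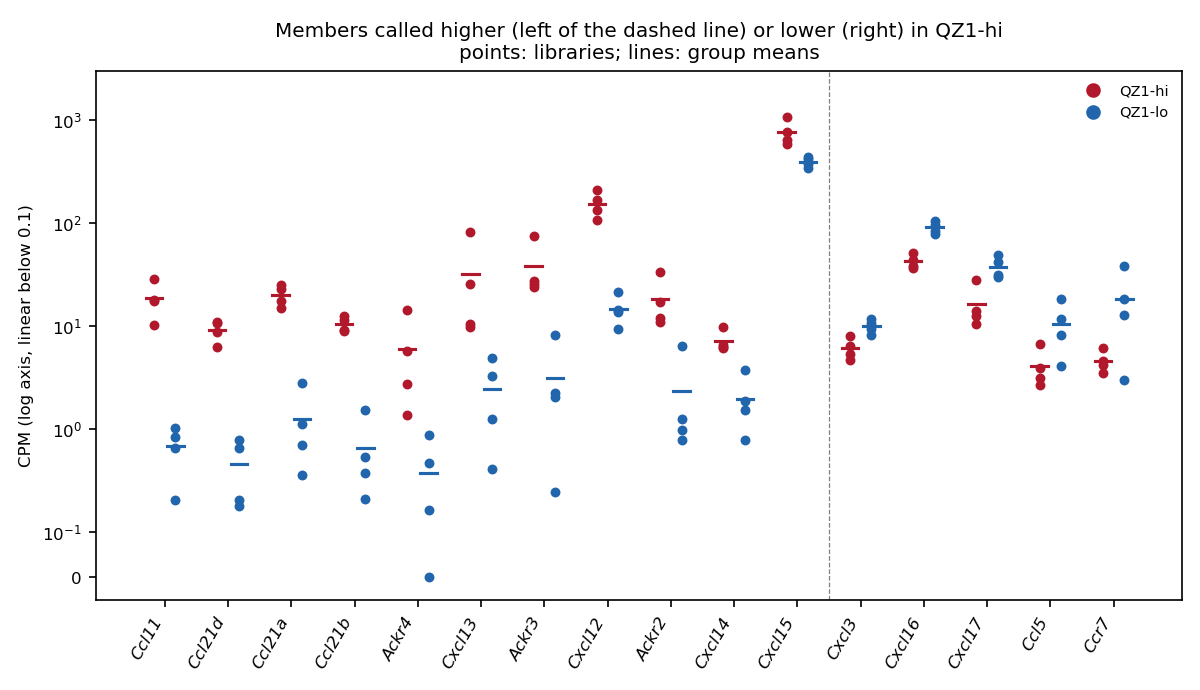
CPM in each library (points, log axis that is linear below 0.1) and the mean of each population (lines) for the 16 called members. The populations do not overlap for the 11 members called higher or for Cxcl3, Cxcl16 and Cxcl17, and they overlap for Ccl5 and Ccr7.

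Among the homeostatic CC ligands, the Ccl21 copies were higher in QZ1-hi. CCL21 is made by lymphatic endothelium and lymphoid stroma and draws dendritic cells and T cells that carry CCR7. Ccl21a (Entrez Gene 18829, chr4:42772860-42773991, mm10) was measured in replicates 1 to 4 at 23.03, 14.9, 24.8 and 17.6 CPM in QZ1-hi and 0.357, 2.80, 1.12 and 0.695 CPM in QZ1-lo. The lowest QZ1-hi library lay above the highest QZ1-lo library (log2 fold change 4.03, SE 0.51, edgeR adjusted p = 0.000499). Ccl21b (Entrez Gene 100042493) stood at 12.4, 9.08, 11.3 and 8.93 CPM in QZ1-hi and 0.209, 0.528, 1.52 and 0.368 CPM in QZ1-lo (log2 fold change 3.99, SE 0.52, edgeR adjusted p = 0.000548). Ccl21d (Entrez Gene 100862177) stood at 11.01, 6.27, 10.6 and 8.81 CPM in QZ1-hi and 0.179, 0.772, 0.651 and 0.204 CPM in QZ1-lo (log2 fold change 4.35, SE 0.48, edgeR adjusted p = 0.000278). The populations did not overlap for either copy. Because 71.6% of the 50-base stretches in the exons of Ccl21a, 97.1% of those of Ccl21d and all of those of Ccl21b occur in another gene, the division among copies is uncertain. Summed over the copies, the level was 46.5, 30.2, 46.7 and 35.4 CPM in QZ1-hi and 0.745, 4.11, 3.29 and 1.27 CPM in QZ1-lo (log2 fold change 4.09, SE 0.45, edgeR adjusted p = 0.000278), with no overlap. The genes Gm13304 and Gm10591 also hold 50-base stretches of these copies, and reads could be divided with them too. With both added to the sum, an alternative chosen after seeing the data, the level was 71.8, 43.8, 64.6 and 53.5 CPM in QZ1-hi and 1.04, 6.63, 5.32 and 1.92 CPM in QZ1-lo (log2 fold change 3.98, SE 0.48, edgeR adjusted p = 0.000410). The summed level of 5 lymphatic endothelial markers was 72.9 to 180.3 CPM in QZ1-hi and 4.25 to 21.01 CPM in QZ1-lo, and their part in the Ccl21 difference was not tested. Since these are sorted bulk samples, more cells of a type cannot be told apart from more RNA per cell, here or in any result below.

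Ccl19, the other CCR7 ligand, had 7, 9, 0 and 4 counts in QZ1-hi and 0, 0, 2 and 0 in QZ1-lo and was not tested. Ccl22, which dendritic cells and macrophages make to attract cells with CCR4, was measured at 6.65, 7.11, 5.78 and 7.15 CPM in QZ1-hi and 11.6, 42.9, 3.98 and 21.4 CPM in QZ1-lo. The QZ1-hi libraries were close together and the QZ1-lo libraries spread widely around them, and the difference was not called (log2 fold change -1.58, SE 0.54, edgeR adjusted p = 0.0664). The call depended on the setting. Ccl22 was called lower without QZ1-lo replicate 3, its lowest library (log2 fold change -1.92, edgeR adjusted p = 0.00506), without a filter on low counts (edgeR adjusted p = 0.0421), with library size only (edgeR adjusted p = 0.00116) and with DESeq2 (DESeq2 adjusted p = 0.00966). Without QZ1-lo replicate 2, its highest library, the log2 fold change was -0.88 (edgeR adjusted p = 0.241). Ccl17, another CCR4 ligand, was measured at 16.05, 14.3, 3.76 and 24.8 CPM in QZ1-hi and 15.1, 11.9, 6.58 and 16.4 CPM in QZ1-lo with overlapping populations (log2 fold change 0.24, SE 0.45, edgeR adjusted p = 0.791). Ccl25 and Ccl27a, at group means between 0.761 and 2.30 CPM, were not called either.

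Among the inflammatory CC ligands, Ccl11 was higher and Ccl5 lower in QZ1-hi. Ccl11 (Entrez Gene 20292, chr11:82057832-82062955) encodes eotaxin, which recruits eosinophils through CCR3 and is made by fibroblasts and epithelium. It had the largest fold change of the tested members, at 28.6, 17.4, 18.1 and 10.1 CPM in QZ1-hi and 1.01, 0.650, 0.832 and 0.204 CPM in QZ1-lo (18.6 ± 7.61 against 0.675 ± 0.347 CPM (mean ± SD, n = 4), log2 fold change 4.75, SE 0.45, edgeR adjusted p = 0.000222). Every QZ1-hi library lay at least at 10.1 CPM and no QZ1-lo library above 1.01 CPM. Its receptor Ccr3 had 0, 0, 0 and 3 counts in QZ1-hi and 22, 6, 9 and 8 in QZ1-lo, too few to be tested.

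Ccl2 and Ccl7 encode ligands of CCR2 that attract monocytes and lie beside Ccl11 on chromosome 11. Ccl2 was measured at 22.2, 15.8, 4.97 and 11.3 CPM in QZ1-hi and 9.92, 4.43, 0.904 and 3.15 CPM in QZ1-lo (log2 fold change 1.55, SE 0.60, edgeR adjusted p = 0.108). Ccl7 was measured at 14.99, 6.37, 2.20 and 4.64 CPM in QZ1-hi and 5.06, 0.894, 0.615 and 0.123 CPM in QZ1-lo (log2 fold change 2.05, SE 0.87, edgeR adjusted p = 0.143). The populations overlapped for both, and neither was called. Ccl2 was called higher with DESeq2 on all 8 libraries (log2 fold change 1.54, DESeq2 adjusted p = 0.0345) and in edgeR without QZ1-lo replicate 1 (log2 fold change 2.27, edgeR adjusted p = 0.0260), and it was not called in the other 16 alternative analyses. Ccl8, of the same cluster, had 75 counts in QZ1-lo replicate 1 and 0 in the other QZ1-lo libraries, and it was not called.

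Ccl5 (Entrez Gene 20304, chr11:83525778-83530518), or RANTES, is made by T cells, NK cells and stimulated epithelium and binds receptors that include CCR1 and CCR3. It was measured at 2.67, 6.61, 3.87 and 3.10 CPM in QZ1-hi and 11.7, 18.1, 4.12 and 8.26 CPM in QZ1-lo (4.06 ± 1.77 against 10.5 ± 5.92 CPM (mean ± SD, n = 4), log2 fold change -1.37, SE 0.43, edgeR adjusted p = 0.0488). QZ1-lo replicate 3 lay within the QZ1-hi range and the other QZ1-lo libraries above it. The call was lost in 10 of 18 alternative analyses, including without QZ1-hi replicate 1, 3 or 4 and without QZ1-lo replicate 1, 2 or 4 (log2 fold change from -1.47 to -0.98, edgeR adjusted p from 0.0592 to 0.166 in these 6).

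Ccl6 and Ccl9, neighbors of Ccl5 that macrophages and other myeloid cells express, were the most abundant CC ligands. Ccl6 was measured at 1255, 1125, 815 and 2506 CPM in QZ1-hi and 1157, 943, 584 and 1649 CPM in QZ1-lo, and per kilobase of exon it was the highest of all members with a GENCODE model (794 CPM per kb in QZ1-hi and 603 in QZ1-lo). Ccl9 was measured at 191, 79.1, 40.1 and 215 CPM in QZ1-hi and 172, 61.7, 35.9 and 138 CPM in QZ1-lo. Both genes varied more within than between populations and were not called (Ccl6: log2 fold change 0.40, SE 0.36, edgeR adjusted p = 0.531; Ccl9: log2 fold change 0.37, SE 0.54, edgeR adjusted p = 0.726). Ccl3 was measured at 10.6, 16.6, 6.76 and 18.6 CPM in QZ1-hi and 16.7, 19.1, 16.02 and 19.1 CPM in QZ1-lo without a call (log2 fold change -0.43, SE 0.27, edgeR adjusted p = 0.341), and Ccl4, with means of 3.87 and 3.21 CPM, was not called. Both encode macrophage inflammatory proteins. With library size only, Ccl3 was called lower (log2 fold change -0.96, edgeR adjusted p = 0.0167).

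The ELR ligands, which act on neutrophils, did not move together. Cxcl15 (Entrez Gene 20309, chr5:90794534-90803067), or lungkine, is a chemokine of lung epithelium and was the second most abundant member. It was measured at 1075, 775, 649.9 and 586 CPM in QZ1-hi and 372, 437, 425 and 342 CPM in QZ1-lo (771 ± 217 against 394 ± 44.5 CPM (mean ± SD, n = 4), log2 fold change 0.97, SE 0.19, edgeR adjusted p = 0.00416), with no overlap between populations. The log2 fold change was 0.57 (edgeR adjusted p = 0.160) when counts were scaled by library size only. The summed level of 6 alveolar type 2 markers was 5933 to 10698 CPM in QZ1-hi and 4726 to 7206 CPM in QZ1-lo with 1 of 6 called higher, whereas the summed level of 6 general epithelial markers was 569 to 874 CPM in QZ1-hi and 1538 to 2091 CPM in QZ1-lo with 6 of 6 called lower. The part of either in the Cxcl15 difference was not tested.

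Cxcl3 (Entrez Gene 330122, chr5:90786101-90788093), a CXCR2 ligand that lies next to Cxcl15, went the other way. It was measured at 6.35, 4.64, 5.37 and 7.92 CPM in QZ1-hi and 10.8, 8.21, 9.44 and 11.7 CPM in QZ1-lo (6.07 ± 1.42 against 10.03 ± 1.52 CPM (mean ± SD, n = 4), log2 fold change -0.73, SE 0.23, edgeR adjusted p = 0.0471). All QZ1-hi libraries lay below all QZ1-lo libraries, by a small margin. The call was lost in 9 of 18 alternative analyses, including without any one of the libraries other than QZ1-hi replicate 4 (log2 fold change from -0.81 to -0.64, edgeR adjusted p from 0.0526 to 0.125 in these 7).

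The other ELR ligands were not called. Cxcl2 was measured at 47.9, 53.4, 60.4 and 106 CPM in QZ1-hi and 83.02, 98.9, 96.001 and 81.1 CPM in QZ1-lo (log2 fold change -0.42, SE 0.22, edgeR adjusted p = 0.248). QZ1-hi replicate 4 was the highest of all libraries, and without it Cxcl2 was called lower (log2 fold change -0.71, edgeR adjusted p = 0.00480). Cxcl2 was also called lower with library size only. Cxcl1 was measured at 13.2, 17.03, 9.71 and 10.4 CPM in QZ1-hi and 8.22, 9.47, 11.1 and 5.93 CPM in QZ1-lo (log2 fold change 0.54, SE 0.25, edgeR adjusted p = 0.179), and Cxcl5 had means of 1.83 and 2.16 CPM. Of these 5 ligands, 2 had positive and 3 had negative log2 fold changes, with a median of -0.24.

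Of the 7 tested CXC ligands without the ELR motif, 3 were higher and 2 were lower in QZ1-hi, against 9.88% and 8.21% of all tested genes. Cxcl12 (Entrez Gene 20315, chr6:117168535-117181368) encodes the stromal ligand of CXCR4, which retains hematopoietic cells and guides endothelial cells. It was measured at 209, 133, 169 and 108 CPM in QZ1-hi and 13.8, 14.2, 21.3 and 9.32 CPM in QZ1-lo (155 ± 44.1 against 14.7 ± 4.96 CPM (mean ± SD, n = 4), log2 fold change 3.40, SE 0.27, edgeR adjusted p = 0.000144). Cxcl13 (Entrez Gene 55985, chr5:95956939-95961068), made by follicular and serosal stroma to attract B cells through CXCR5, was measured at 25.4, 82.1, 9.71 and 10.5 CPM in QZ1-hi and 1.25, 4.92, 3.29 and 0.409 CPM in QZ1-lo (31.9 ± 34.2 against 2.47 ± 2.03 CPM (mean ± SD, n = 4), log2 fold change 3.70, SE 0.81, edgeR adjusted p = 0.00851). The populations did not overlap for either gene, but the Cxcl13 level within QZ1-hi ranged from 9.71 to 82.1 CPM. Without QZ1-hi replicate 2, the highest library, the log2 fold change of Cxcl13 was 2.61 (edgeR adjusted p = 0.0225). Cxcl14 (Entrez Gene 57266, chr13:56288643-56296811), a chemokine of epithelium and fibroblasts, was measured at 9.70, 6.12, 6.59 and 6.25 CPM in QZ1-hi and 0.775, 3.70, 1.88 and 1.51 CPM in QZ1-lo (7.16 ± 1.70 against 1.97 ± 1.24 CPM (mean ± SD, n = 4), log2 fold change 1.87, SE 0.43, edgeR adjusted p = 0.0108). Its QZ1-hi libraries all lay above its QZ1-lo libraries.

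Cxcl16 and Cxcl17 were lower in QZ1-hi. Cxcl16 (Entrez Gene 66102, chr11:70454389-70459984) encodes a membrane-anchored ligand of CXCR6, made by epithelium and macrophages. It was measured at 51.8, 43.97, 37.03 and 37.9 CPM in QZ1-hi and 95.1, 106, 84.6 and 79.2 CPM in QZ1-lo (42.7 ± 6.83 against 91.3 ± 11.9 CPM (mean ± SD, n = 4), log2 fold change -1.10, SE 0.15, edgeR adjusted p = 0.000609), without overlap. On the opposite strand, Zmynd15 covers 18.3% of its exons, and the strand setting of the counting is not given in the sources used here. Zmynd15 was measured at 2.96, 2.42, 1.85 and 4.05 CPM in QZ1-hi and 3.93, 12.7, 3.25 and 7.36 CPM in QZ1-lo, well below Cxcl16 in every library. Cxcl17 (Entrez Gene 232983, chr7:25400053-25412886), a product of mucosal and airway epithelium, was measured at 14.1, 27.8, 12.6 and 10.5 CPM in QZ1-hi and 29.9, 41.5, 48.6 and 31.5 CPM in QZ1-lo (16.3 ± 7.85 against 37.9 ± 8.82 CPM (mean ± SD, n = 4), log2 fold change -1.22, SE 0.29, edgeR adjusted p = 0.0128). The populations did not overlap. The summed level of 4 club and secretory cell markers was 319 to 875 CPM in QZ1-hi and 1312 to 3644 CPM in QZ1-lo and that of 4 ciliated cell markers 53.5 to 127 CPM in QZ1-hi and 185 to 396 CPM in QZ1-lo, and the part of these in the Cxcl16 and Cxcl17 differences was not tested.

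The interferon-induced CXCR3 ligands Cxcl9 and Cxcl10 were not called. Cxcl9 was measured at 5.84, 11.4, 21.3 and 14.8 CPM in QZ1-hi and 9.03, 9.43, 10.3 and 9.94 CPM in QZ1-lo (log2 fold change 0.46, SE 0.31, edgeR adjusted p = 0.385), with a wider spread in QZ1-hi than in QZ1-lo. Cxcl10 had means of 3.78 and 3.05 CPM. Cx3cl1, the membrane-bound ligand of CX3CR1, was measured at 23.7, 18.1, 23.7 and 16.7 CPM in QZ1-hi and 21.03, 23.9, 24.6 and 18.7 CPM in QZ1-lo, which overlapped throughout (log2 fold change -0.10, SE 0.17, edgeR adjusted p = 0.753).

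Of the 12 tested signalling receptors, 1 was called, and it was lower in QZ1-hi. Over all tested genes, 9.88% were called higher and 8.21% lower, so this count is near those shares. Ccr7 (Entrez Gene 12775, chr11:99144199-99155077), the receptor for CCL19 and CCL21 on mature dendritic cells and naive T cells, was measured at 6.05, 4.15, 3.52 and 4.53 CPM in QZ1-hi and 12.7, 38.7, 2.96 and 18.4 CPM in QZ1-lo (4.56 ± 1.08 against 18.2 ± 15.1 CPM (mean ± SD, n = 4), log2 fold change -1.99, SE 0.57, edgeR adjusted p = 0.0331). In QZ1-lo, 3 libraries lay above all QZ1-hi libraries and replicate 3 below them. The call was lost in 9 of 18 alternative analyses, including without any one QZ1-hi library and without QZ1-lo replicate 2 or 4 (log2 fold change from -2.16 to -1.31, edgeR adjusted p from 0.0527 to 0.113 in these 6). Within QZ1-lo, Ccr7 and Ccl22 put the libraries in the same order, with replicate 2 highest, then replicates 4, 1 and 3.

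Cxcr4, the signalling receptor for CXCL12, was measured at 9.95, 9.92, 17.2 and 15.1 CPM in QZ1-hi and 21.1, 23.3, 18.9 and 14.1 CPM in QZ1-lo (log2 fold change -0.57, SE 0.23, edgeR adjusted p = 0.117). It was not called, although it was called lower without QZ1-hi replicate 3 (log2 fold change -0.77, edgeR adjusted p = 0.0483). Cxcr5, the receptor for CXCL13 on B cells, was measured at 0.381, 0.691, 0 and 1.49 CPM in QZ1-hi and 3.46, 3.25, 0.976 and 1.27 CPM in QZ1-lo (log2 fold change -1.81, SE 0.88, edgeR adjusted p = 0.205). Cxcr6, the receptor for CXCL16 on T cells, was measured at 1.35, 2.76, 0.289 and 2.80 CPM in QZ1-hi and 6.11, 2.20, 0.0723 and 1.84 CPM in QZ1-lo (log2 fold change -0.51, SE 0.92, edgeR adjusted p = 0.780). The populations overlapped for all 3 receptors. With all 8 libraries and TMM scaling, none of the called ligands Cxcl12, Cxcl13 and Cxcl16 had a signalling receptor called in either direction. With library size only, which lowered the median of all genes to -0.44, Cxcr4 and Cxcr5 were called lower (edgeR adjusted p = 0.0122 and 0.0281).

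Cxcr2, the neutrophil receptor for ELR ligands such as CXCL1, CXCL2 and CXCL3, was measured at 7.16, 8.39, 10.98 and 16.4 CPM in QZ1-hi and 14.2, 19.4, 17.4 and 13.004 CPM in QZ1-lo (log2 fold change -0.58, SE 0.26, edgeR adjusted p = 0.164). Without QZ1-hi replicate 4 it was called lower (log2 fold change -0.83, edgeR adjusted p = 0.0283), and likewise with library size only (edgeR adjusted p = 0.00755). The summed level of 5 neutrophil markers overlapped (143 to 315 CPM in QZ1-hi and 232 to 313 CPM in QZ1-lo), with a median log2 fold change of -0.35. Of these markers, 1 was called lower, the neutrophil growth factor receptor Csf3r (log2 fold change -0.96, SE 0.21, edgeR adjusted p = 0.00793), which was singled out after its values were seen. The populations overlapped for Csf3r, with QZ1-hi replicate 4 at 59.13 CPM and QZ1-lo replicate 4 at 58.97 CPM. The part of neutrophils in the Cxcr2 values was not tested. The monocyte and macrophage receptors were spread within populations. Ccr1 was measured at 17.1, 27.5, 19.6 and 45.7 CPM in QZ1-hi and 33.99, 35.5, 17.9 and 30.9 CPM in QZ1-lo (log2 fold change -0.11, SE 0.31, edgeR adjusted p = 0.868). Ccr2, the CCL2 receptor, had means of 7.05 and 4.72 CPM. Neither of these receptors was called.

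All 3 tested atypical receptors were higher in QZ1-hi, against 9.88% of all tested genes, and Ackr1 was not tested. The count is limited by the filter, because Ackr3 and Ackr4 reached its level in every QZ1-hi library but not in every QZ1-lo library. Ackr3 (Entrez Gene 12778, chr1:90203980-90215724), which takes up CXCL12, was measured at 23.8, 25.6, 75.6 and 27.3 CPM in QZ1-hi and 2.03, 2.24, 8.10 and 0.245 CPM in QZ1-lo (38.1 ± 25.1 against 3.15 ± 3.42 CPM (mean ± SD, n = 4), log2 fold change 3.59, SE 0.73, edgeR adjusted p = 0.00572). Ackr2 (Entrez Gene 59289, chr9:121898355-121911075), a scavenger of inflammatory CC chemokines on lymphatic endothelium, was measured at 17.2, 10.9, 33.2 and 11.97 CPM in QZ1-hi and 0.983, 1.26, 6.33 and 0.777 CPM in QZ1-lo (18.3 ± 10.3 against 2.34 ± 2.67 CPM (mean ± SD, n = 4), log2 fold change 2.96, SE 0.65, edgeR adjusted p = 0.00838). Ackr4 (Entrez Gene 252837, chr9:104097682-104126643), which takes up CCL19, CCL21 and CCL25, was measured at 1.35, 2.71, 14.2 and 5.78 CPM in QZ1-hi and 0.864, 0, 0.470 and 0.164 CPM in QZ1-lo (6.01 ± 5.77 against 0.374 ± 0.380 CPM (mean ± SD, n = 4), log2 fold change 3.93, SE 0.94, edgeR adjusted p = 0.0132). No QZ1-lo library reached the lowest QZ1-hi library for any of these genes.

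In QZ1-hi, replicate 3 was the highest library for all 3 atypical receptors. Without it the log2 fold changes of Ackr3, Ackr2 and Ackr4 were 3.003, 2.50 and 3.04, with edgeR adjusted p of 0.0167, 0.0255 and 0.0656, so that the call of Ackr4 was lost. It was also lost with limma (log2 fold change 4.29, limma adjusted p = 0.101). In QZ1-lo, replicate 3 was the highest library for Ackr3 and Ackr2, and leaving it out gave log2 fold changes of 4.64 and 4.18 (edgeR adjusted p = 0.00116 and 0.000314). Acad11 covers 8.9% of the exons of Ackr4 on the opposite strand, and its log2 fold change was -0.09 (edgeR adjusted p = 0.843). Ackr1, the Duffy antigen of venular endothelium, had 17, 0, 39 and 17 counts in QZ1-hi and 0 in every QZ1-lo library. Its mean CPM in QZ1-hi was at least 9.0-fold higher than the mean floor of 3 counts per library in QZ1-lo, but 1 QZ1-hi library was also at 0 and the gene did not pass the filter.

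**Figure D3:**
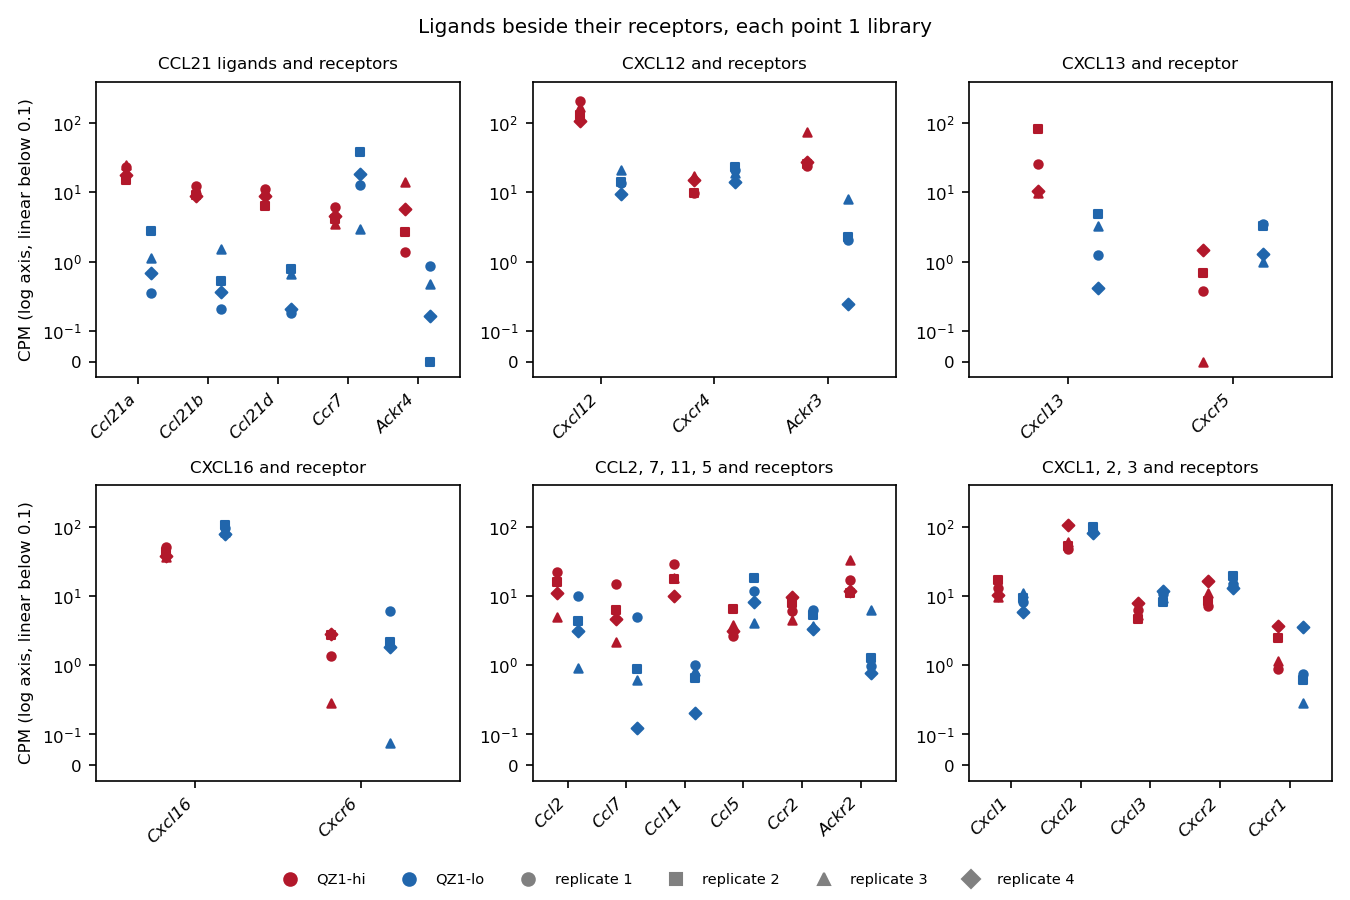
CPM (log axis, linear below 0.1) of ligands beside their signalling and atypical receptors, with each point 1 library, color for the population and shape for the replicate number. Ccl21 copies and Ackr4 are higher in QZ1-hi while Ccr7 is lower on average with overlapping libraries, and Cxcl12 and Ackr3 are higher while the 2 populations overlap for Cxcr4.

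Within each population, several members were highest in the library that was also highest for a marker list. A shared replicate number links no libraries across populations. The summed level of 8 endothelial markers in replicates 1 to 4 was 1363, 792, 1862 and 748 CPM in QZ1-hi and 76.4, 103, 249 and 50.2 CPM in QZ1-lo, with all 8 called higher. Lymphatic markers were at 118, 72.9, 180.3 and 98.7 CPM in QZ1-hi and 5.57, 7.97, 21.01 and 4.25 CPM in QZ1-lo, with 4 of 5 called higher. Replicate 3 had the highest sum of both lists in each population, as it had for Ackr3 and Ackr2. Mesothelial markers were at 56.4, 268, 38.4 and 66.1 CPM in QZ1-hi and 15.4, 36.4, 9.69 and 5.93 CPM in QZ1-lo, with 4 of 4 called higher. Replicate 2 was the highest for this list and for Cxcl13 in each population. Fibroblast markers, of which 6 of 6 were called higher, were at 1655, 2802, 3032 and 1571 CPM in QZ1-hi and 132, 338, 353 and 38.7 CPM in QZ1-lo, and 3 of 6 pericyte and smooth muscle markers were called higher (57.1 to 80.2 CPM in QZ1-hi and 15.2 to 34.5 CPM in QZ1-lo). The other members called higher peaked with these lists in 1 population only or in neither. The endothelial, lymphatic and fibroblast sums were highest in replicate 3 of each population. Ccl11 was highest in replicate 1 of each population, and Cxcl12 in QZ1-hi replicate 1 and QZ1-lo replicate 3. Ackr4 was highest in QZ1-hi replicate 3 and QZ1-lo replicate 1, and Ccl21a in QZ1-hi replicate 3 and QZ1-lo replicate 2. Ccl21b was highest in QZ1-hi replicate 1 and QZ1-lo replicate 3, and Ccl21d in QZ1-hi replicate 1 and QZ1-lo replicate 2. Summed over copies, Ccl21 was highest in QZ1-hi replicate 3 and QZ1-lo replicate 2. The part of the cell types of these lists in the differences of Cxcl12, Cxcl13, Cxcl14, Ccl11, Ccl21 and the atypical receptors was not tested.

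Macrophage and monocyte markers were at 456, 480.2, 402 and 995 CPM in QZ1-hi and 416, 404, 248 and 652 CPM in QZ1-lo, with 1 of 9 called higher. Replicate 4 was the highest in each population for this list and for Ccl6, and QZ1-lo replicate 3 was the lowest of all 8 libraries for both. Dendritic cell markers were at 173, 157, 129 and 278 CPM in QZ1-hi and 137, 116, 74.7 and 178 CPM in QZ1-lo, with 2 of 4 tested called higher and 1 called lower. Itgax, which macrophages also express, made up most of this sum, at means of 149 CPM in QZ1-hi and 113 CPM in QZ1-lo. The marker called lower was Flt3, at 0.931, 0.839, 0.173 and 0.476 CPM in QZ1-hi and 2.29, 10.8, 1.41 and 4.09 CPM in QZ1-lo (log2 fold change -2.91, SE 0.71, edgeR adjusted p = 0.0148). Within QZ1-lo it put the libraries in the same order as Ccr7 and Ccl22. Zbtb46 and Clec9a were called higher (log2 fold change 1.31 and 2.55, edgeR adjusted p = 0.0170 and 0.000253). These markers were singled out after their values were seen. T cell markers (10.9 to 15.9 CPM in QZ1-hi and 11.9 to 25.1 CPM in QZ1-lo), B cell markers (1.28 to 3.99 CPM in QZ1-hi and 1.63 to 3.49 CPM in QZ1-lo) and NK cell markers (0.982 to 2.76 CPM in QZ1-hi and 2.54 to 5.86 CPM in QZ1-lo) overlapped. Of 6 T cell markers, 1 was called lower (median log2 fold change -0.98), the T cell receptor component Cd3g, at 1.25 to 1.78 CPM in QZ1-hi and 1.99 to 5.78 CPM in QZ1-lo (log2 fold change -1.55, SE 0.40, edgeR adjusted p = 0.0188). Of 2 tested NK cell markers none was called (median log2 fold change -1.59), although Nkg7 did not overlap, at 0.0595 to 0.938 CPM in QZ1-hi and 1.10 to 1.38 CPM in QZ1-lo (log2 fold change -1.59, SE 0.81, edgeR adjusted p = 0.225). Both genes were singled out after their values were seen. Of all these lists, the mast cell list was the only one at 0 in every QZ1-lo library, with Fcer1a at 0 in all 8 libraries. Its sum was 3.30, 0.0494, 0.116 and 0.238 CPM in replicates 1 to 4 of QZ1-hi, so that 1 library held most of it. None of its genes passed the filter. Platelet markers were at 9.28 to 17.7 CPM in QZ1-hi and 2.65 to 5.97 CPM in QZ1-lo, and red cell markers overlapped at 130.4 to 1005 CPM in QZ1-hi and 282 to 3094 CPM in QZ1-lo. The part of leukocytes in the differences of Ccr7 and Ccl5 was not tested.

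**Figure D4:**
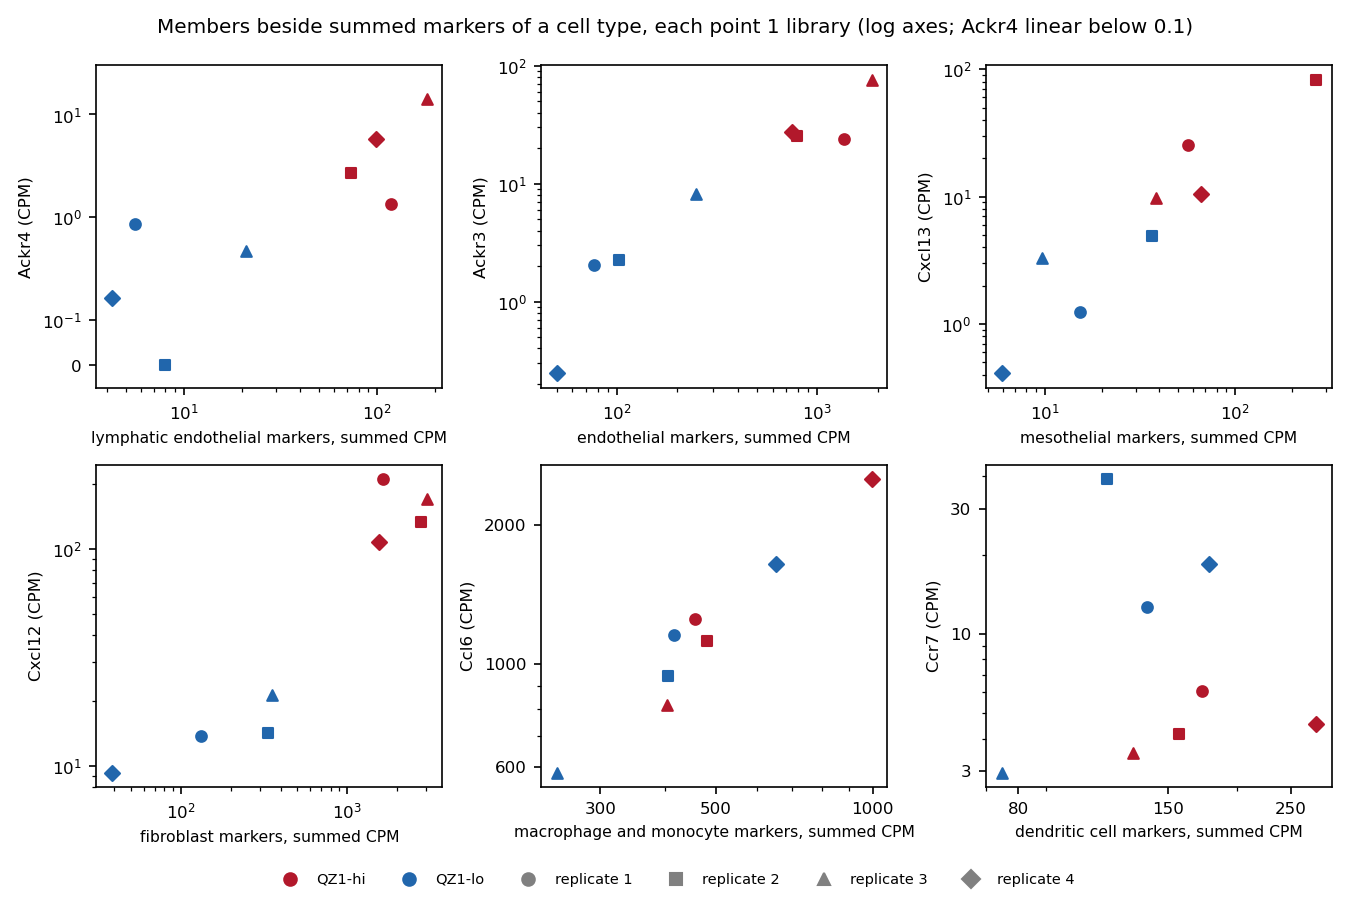
CPM of 6 members (vertical, log axes, Ackr4 linear below 0.1) against the summed CPM of a marker list (horizontal, log axes), with each point 1 library. QZ1-hi and QZ1-lo form separate groups for Ackr4, Ackr3, Cxcl13 and Cxcl12, and they overlap on both axes for Ccl6 with macrophage markers.

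Of the members, 20 did not pass the filter, and 17 of these had counts. Ccl28, a ligand of mucosal epithelium, had 0, 0, 2 and 2 counts in QZ1-hi and 20, 3, 28 and 14 in QZ1-lo. Ccl12, a mouse CCR2 ligand, had 15, 8, 18 and 7 counts in QZ1-hi and 11, 0, 0 and 6 in QZ1-lo. Ccl24, an eosinophil attractant made by macrophages, had 181, 6, 0 and 38 counts in QZ1-hi and 211, 1, 0 and 1 in QZ1-lo, so that 1 library of each population held most of its counts. Without a filter on low counts, Ackr1 was called higher (edgeR adjusted p = 0.0184), and the adjusted p of the other 16 with counts was 0.159 or more. Ccl1 and Ccl26 had no counts in any library, which allows a level of up to 0.0894 to 0.179 CPM. Ccl21c had none either, but it had no matching GENCODE model and its reads could be assigned to other Ccl21 copies. No bound on its level is given for this reason.

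The members lie close together in the genome, a feature that the choice by symbol did not use. In GRCm38 coordinates, 43 members fell into 10 clusters in which neighbors were at most 500 kb apart. Each cluster with called members also held members that were not called. The cluster at chr5:90759298-90905938 holds Cxcl5, Cxcl3, Cxcl15, Cxcl1 and Cxcl2 within 146.6 kb, with 1 gene higher and 1 lower. The cluster at chr11:82035577-82179812 holds Ccl2, Ccl7, Ccl11, Ccl12, Ccl8 and Ccl1, with Ccl11 the only call among 4 tested. The cluster at chr4:41769467-42773991 holds the 3 called Ccl21 copies, whose reads cannot be divided with certainty, with the Ccl27 and Ccl19 genes. These small counts are descriptions only and stand beside 9.88% of all tested genes called higher and 8.21% called lower.

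Promoters from 250 bases before to 50 bases after the gene start (RefSeq, GRCm38.p6) were available for 47 members and searched on both strands for a form of the NF-κB binding motif (GGG, any 2 bases, then TTTCC). It occurred in 6 of the 47 (12.8%) and in 1.89% of 27025 promoters of all genes. It was found in 0 of 10 members called higher, in 1 of 1 called lower (Cxcl3) and in the promoters of 3 of 22 members tested and not called (Cxcl1, Cxcl2 and Ccl9). The other matches were in Ccl20 and Ccr3. The stretches around the match in the 3 ELR ligands of chromosome 5 are shown because these neighbors shared the motif at a similar distance from the start, with the motif in capitals, plus strand of GRCm38.p6:
Cxcl3, chr5:90786016-90786049: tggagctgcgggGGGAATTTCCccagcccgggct
Cxcl1, chr5:90891162-90891195: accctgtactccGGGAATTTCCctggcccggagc
Cxcl2, chr5:90903790-90903823: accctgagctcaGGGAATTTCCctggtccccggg
The matches start 73, 71 and 97 bases before the gene start for Cxcl3, Cxcl1 and Cxcl2. Cxcl1 and Cxcl2 each held a second match, which begins 89 and 78 bases before the start. These letters describe the sequence and do not show that a factor was bound.

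The counts of called genes in the following lists stand beside 9.88% of all tested genes called higher and 8.21% called lower and are descriptions only. The single calls of 1 of 22 and 1 of 7 genes given below are near these shares. Of 9 tested chemokine-like genes outside the symbol rule, 5 were higher and 0 lower in QZ1-hi (median log2 fold change 1.51, against 0.02 over all tested genes). These were the chemokine-scavenging endothelial receptor Gpr182 (log2 fold change 4.17, SE 0.38, edgeR adjusted p = 0.000201), the chemerin gene Rarres2 (log2 fold change 3.10, SE 0.46, edgeR adjusted p = 0.00100), the platelet chemokine Ppbp (log2 fold change 2.51, SE 0.57, edgeR adjusted p = 0.00971), the chemerin receptor Cmklr1 and Pf4. The platelet markers given above moved with Ppbp and Pf4, and their part was not tested.

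Of 22 tested genes of signalling below chemokine receptors, 5 were higher and 1 lower (median log2 fold change 0.07). The kinase Grk5 (log2 fold change 1.66, SE 0.18, edgeR adjusted p = 0.000278), the β-arrestin Arrb1 (log2 fold change 1.37, SE 0.15, edgeR adjusted p = 0.000289) and the Rac activator Elmo1 (log2 fold change 1.02, SE 0.18, edgeR adjusted p = 0.00283) were the highest. Grk3, another receptor kinase, was lower (log2 fold change -0.70, SE 0.15, edgeR adjusted p = 0.00716). Of 14 NF-κB subunits and feedback genes, 0 were higher and 4 lower (median log2 fold change -0.35), with Relb (log2 fold change -0.94, SE 0.25, edgeR adjusted p = 0.0249), Nfkb2 (log2 fold change -0.87, SE 0.11, edgeR adjusted p = 0.000510) and the inhibitor Nfkbie (log2 fold change -0.53, SE 0.12, edgeR adjusted p = 0.00948) the lowest. With library size only, which lowered the median of all genes to -0.44, 2 genes of the signalling list were higher and 3 lower, and 0 and 10 of the NF-κB list.

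Of 7 tested genes for cytokines and other proteins that act on neutrophils and myeloid cells, 2 were higher and 2 lower (median log2 fold change 0.03). The acute-phase protein gene Saa3 (log2 fold change 2.89, SE 0.68, edgeR adjusted p = 0.0123) and Csf1, the macrophage growth factor (log2 fold change 0.85, SE 0.23, edgeR adjusted p = 0.0233), were higher. Anxa1, which restrains neutrophil recruitment (log2 fold change -0.95, SE 0.16, edgeR adjusted p = 0.00181), and Lif (log2 fold change -0.91, SE 0.26, edgeR adjusted p = 0.0339) were lower. Of 10 cytokine receptors and adaptors upstream of chemokine genes, 2 were higher and 0 lower (median log2 fold change 0.30), the interleukin-1 receptor Il1r1 (log2 fold change 1.09, SE 0.24, edgeR adjusted p = 0.00812) and the TNF receptor Tnfrsf1a (log2 fold change 0.79, SE 0.14, edgeR adjusted p = 0.00266). Of 7 genes of lymphatic and lymphoid stroma, 1 was higher and 0 lower (median log2 fold change 0.42), podoplanin Pdpn (log2 fold change 0.72, SE 0.18, edgeR adjusted p = 0.0157). Over all 6 lists, 15 genes were higher and 7 lower, against 7 and 18 with library size only.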

How the data were processed

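The authors deposited a table of raw counts that covers 27179 genes and 8 libraries, 4 per population. Cells were sorted from dissociated lungs, stranded total RNA libraries (SMARTer) were sequenced on a NextSeq500, and reads were counted with Rsubread. The submitters' processing notes name mm10 and DESeq2; the aligner, annotation and strand setting are not given in the sources used here. Identifiers (Entrez Gene) were named with RefSeq (GRCm38.p6). In R 4.3.3, edgeR 4.0.16 was used with TMM, filterByExpr (minimum count 10, minimum total 15) and the quasi-likelihood test over 15583 genes, with Benjamini-Hochberg adjustment at 0.05. The SE was derived from each log2 fold change and its F statistic. The fit was tested on simulated data. Alternatives were DESeq2 1.42.0, limma 3.58.1, other scalings, filters and thresholds, summed copies, and each library left out. A sum with genes related to Ccl21 was added after seeing the data. Results for 1 tested member are not reported here. Members and lists were chosen with earlier results of these data known. Any member could be named; called members were given in every library, others at 10 CPM or more or as partners of called members, and at most 3 called genes per direction of each list. Shared sequence and coding sequences came from GENCODE M21 (GRCm38).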

Additional observations from a re-analysis of the deposited data

Results flagged for a closer look

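In 7 of 88 combinations of a tested member and a population, 1 library stood far above the other 3 by Dixon's ratio (above 0.829 for 4 libraries). About 1 in 20 such combinations would pass by chance if the values were normally distributed, which was not tested for these CPM values. Ackr3 was at 75.6 CPM in QZ1-hi replicate 3, against 23.8 to 27.3 CPM in the other QZ1-hi libraries. Ackr2 was at 6.33 CPM in QZ1-lo replicate 3, against 0.777 to 1.26 CPM in the others, and still below the lowest QZ1-hi library. Cxcl14 was at 9.70 CPM in QZ1-hi replicate 1, against 6.12 to 6.59 CPM. QZ1-lo replicate 1 stood apart for both of the clustered ligands Ccl7, at 5.06 CPM against 0.123 to 0.894 CPM, and Ccl8, at 2.23 CPM against 0 in the others. Cxcl10 was at 4.84 CPM in QZ1-lo replicate 2, against 2.33 to 2.60 CPM. Cxcr1, a neutrophil receptor, was at 3.60 CPM in QZ1-lo replicate 4, against 0.289 to 0.745 CPM.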

How the results depend on the processing

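Of 585 values of 33 named members under 18 alternatives, 525 kept their direction and side of the threshold, 34 lost a call, 14 gained one and 12 changed sign. Cxcl12, Cxcl13, Cxcl16, Ccl11, Ackr2, Ackr3 and the Ccl21 copies held their calls in every alternative in which they were fitted. The count of members called higher was 6 with 10 counts required in every library, where only 30 members are tested. It was 9 with near-identical copies summed, where 42 are tested, and 10 to 14 with 1 library left out. The count called lower was 3 with limma, 3 with the robust fit, 1 at an adjusted p under 0.01, 11 with library size only, and 2 to 5 with 1 library left out. Of all 15583 tested genes, limma called 1697 higher and 1289 lower, and the robust fit 1509 and 1294. With 1 library left out, 1136 to 1506 genes were higher and 938 to 1201 lower, of 15787 to 16022 tested. The share of all genes under 0.01 was not computed. Library size only moved the median of all genes to -0.44 (883 genes higher and 2509 lower). It also moved the summed counts of the 6 pathway lists from 15 higher and 7 lower to 7 and 18, and on this scaling the log2 fold changes of Ccl17, Ccl6, Ccl9 and Cxcl9 were -0.29, -0.15, -0.15 and -0.039. These 4 values lie above that shifted median. Ccl17 was at -0.075 with limma. With 1 library left out, the log2 fold change of Ccl17 ranged from -0.11 to 0.51, of Ccl25 from -0.33 to 0.025 (0.0065 without QZ1-hi replicate 1), of Ccl6 from -0.0072 to 0.67, of Ccr1 from -0.44 to 0.067, of Cx3cl1 from -0.21 to 0.014 and of Cxcr6 from -0.91 to 0.40. None of these members was called. Without QZ1-lo replicate 2, Ccl21a was at 4.80, and without QZ1-lo replicate 3, Ccl21b was at 4.84. The cause of these changes was not tested. No paired analysis was possible because nothing in the labels or methods says which libraries of the populations share a mouse, and the replicate numbers only follow the order of deposition. Values under about 1 CPM rest on few counts, and differences there were often not detectable at this depth.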
